A study of Mus musculus with 2 samples.

Results

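Dcpp1, Dcpp2 and Dcpp3 (demilune cell and parotid protein 1, 2 and 3) were followed through the cell classes of the adult mouse parotid gland (PG) in single-cell RNA-seq (scRNA-seq) libraries. They were chosen by symbol and were 3 of the 48825 features listed in the count matrices of both libraries, with the identifiers ENSMUSG00000096445.1 for Dcpp1, ENSMUSG00000096278.7 for Dcpp2 and ENSMUSG00000057417.6 for Dcpp3. The study compared glands 10 months after irradiation (IR) with glands of mice that were not irradiated. The IR library came from mice given 6 Gy a day on 5 days, 30 Gy in total, to the head and neck at 6 to 10 weeks of age. Each condition was 1 library that pooled the dissociated glands of 2 female wild-type C3H mice, so neither condition had a replicate. No test between conditions was run, and an effect of irradiation cannot be told apart from a difference between these mice or between these preparations.

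The Dcpp proteins are small secreted proteins of mouse saliva that carry a jacalin-type lectin domain, and they were named after the serous demilune cells of the sublingual gland and after the PG. Saliva of the PG is made by serous acinar cells and passes through the narrow intercalated ducts (ID) into the striated ducts (SD), which take up salt and make kallikreins. In droplet libraries, RNA that leaks from broken cells is captured with every cell, so an abundant secretory transcript gives counts in cells that do not make it.

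The 3 genes lay side by side on the plus strand of chromosome 17 (GRCm38, GENCODE M21). Dcpp1 spanned chr17:23880876-23882853, Dcpp2 chr17:23880880-23900788 and Dcpp3 chr17:23917458-23919441. The annotated span of Dcpp2 overlapped that of Dcpp1, because 1 of its 3 transcripts started there, and the transcript of Dcpp2 used here started at position 23898721. Each of the transcripts used had 4 exons. The RefSeq promoters (GRCm38.p6), the 250 bases before each RefSeq start, are shown because they differ at so few positions. Capitals mark each base that differs from another member or has no partner in it.
Dcpp1 promoter, chr17:23880626-23880875: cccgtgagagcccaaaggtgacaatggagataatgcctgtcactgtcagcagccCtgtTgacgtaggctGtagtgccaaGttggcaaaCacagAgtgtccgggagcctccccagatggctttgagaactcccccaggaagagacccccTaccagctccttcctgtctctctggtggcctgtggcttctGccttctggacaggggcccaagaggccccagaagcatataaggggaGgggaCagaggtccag
Dcpp2 promoter, chr17:23898472-23898721: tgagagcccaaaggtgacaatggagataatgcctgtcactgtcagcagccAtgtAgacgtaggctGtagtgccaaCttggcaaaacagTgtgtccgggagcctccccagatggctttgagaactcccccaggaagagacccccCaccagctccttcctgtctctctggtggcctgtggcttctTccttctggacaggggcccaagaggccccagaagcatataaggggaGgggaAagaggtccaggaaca
Dcpp3 promoter, chr17:23917208-23917457: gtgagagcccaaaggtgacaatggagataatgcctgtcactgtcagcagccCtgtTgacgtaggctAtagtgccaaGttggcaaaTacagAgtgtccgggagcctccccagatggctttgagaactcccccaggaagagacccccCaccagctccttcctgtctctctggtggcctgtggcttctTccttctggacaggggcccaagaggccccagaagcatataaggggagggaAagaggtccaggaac
The promoters of Dcpp1 and Dcpp2 were 96.75% identical, those of Dcpp1 and Dcpp3 97.57%, and those of Dcpp2 and Dcpp3 97.2%. Each held the letters TATAA 1 time, on the strand of the gene, starting 26 bases before the start in Dcpp1, 31 in Dcpp2 and 29 in Dcpp3. Of 32851 mouse promoters of this length, 16.0% held TATAA on the strand of the gene and 22.78% on either strand. A match of letters is a description and not a site.

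The transcripts were nearly as alike as the promoters. The coding sequences of Dcpp1 and Dcpp2 (513 bases each) were 93.76% identical, and that of Dcpp3 (510 bases) was 93.18% identical to Dcpp1 and 95.32% to Dcpp2. The last 150 coding bases are shown because libraries of this kind (Chromium v3) are read near the 3′ end, and capitals mark the positions at which the members differ.
Dcpp1 coding end, chr17:23882642-23882791: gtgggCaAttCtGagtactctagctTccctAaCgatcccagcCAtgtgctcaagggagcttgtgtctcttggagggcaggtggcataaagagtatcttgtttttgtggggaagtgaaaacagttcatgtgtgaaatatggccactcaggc
Dcpp2 coding end, chr17:23900577-23900726: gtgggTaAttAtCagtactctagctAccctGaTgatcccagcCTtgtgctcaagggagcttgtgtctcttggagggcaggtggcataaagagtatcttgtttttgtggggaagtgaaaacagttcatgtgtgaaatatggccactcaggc
Dcpp3 coding end, chr17:23919230-23919379: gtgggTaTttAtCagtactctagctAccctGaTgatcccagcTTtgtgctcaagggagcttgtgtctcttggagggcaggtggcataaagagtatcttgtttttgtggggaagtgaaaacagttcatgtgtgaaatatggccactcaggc
All 9 differing positions of each copy lay in the first part of this stretch, and the remaining bases were the same in the 3 genes. Of the 60-base windows in the last 300 bases of the transcripts, 45.23% of those of Dcpp1, 35.68% of those of Dcpp2 and 45.64% of those of Dcpp3 were also found in another member. A read from such a window cannot be given to 1 gene, so the split of counts between the copies is uncertain throughout.

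The control library held 5550 barcodes with 22707876 UMIs (unique molecular identifiers, each of which stands for 1 captured RNA molecule), and the IR library 7793 barcodes with 23890757 UMIs. A barcode counted as a cell if it had 200 genes or more and its mitochondrial share did not exceed 5%. This left 3378 control cells, at a median of 2907.5 UMIs each, and 5286 IR cells, at a median of 2461.5. The libraries shared 12 barcode sequences, 3 of them among kept cells. The doublet caller Scrublet marked 43 control cells (1.27%) and 2 IR cells (0.0378%), so it did not work in the IR library and no cell was removed by it. Levels are CPM, the UMIs of a gene per 1000000 UMIs of a class, and all intervals are 95% intervals that cover counting error only, not the spread between mice or libraries.

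Irradiated epithelial cells with at least 1000 UMIs held 2 large sets of linked barcodes, in which the make-up of each barcode over 40 abundant genes, members left out, differed from that of another by little more than sampling noise. Set 1 had 54 barcodes, 53 of them in the ID class, and set 2 had 45 barcodes, all in the SD class. The next largest set had 10 barcodes in the IR library, and the largest in the control library had 9. Results in both duct classes are given with and without these sets. A further 2 control cells, with 40018 UMIs in all, were set apart after their values were seen, because 10 odorant-binding and secretoglobin-type genes took most of their UMIs.

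Dcpp1 ranked 6th by total UMIs over all barcodes of the control library (18468 CPM) and 5th in the IR library (18846 CPM). Dcpp2 had 787 CPM over all control barcodes and 261 over all IR barcodes, and Dcpp3 had 334 and 121. Summed over a library, Dcpp1 was thus at a similar level in both, whereas Dcpp2 and Dcpp3 were lower in the IR library.

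Cells were clustered with the 3 members left out of the genes used, since the study itself had named its ID cluster after Dcpp1-3. Their UMIs still counted in the total by which each cell was normalized. Class names stand for clusters with the markers of that type (ID-like and so on) and are shortened here. The ID class had 89 control and 125 IR cells, and 11 of 15 other ID markers in the control and all 15 in the IR library had at least 2 times the CPM of other cells. The SD class had 90 control and 80 IR cells and met 11 and 14 of its 15 markers. The acinar class had 395 and 377 cells, and the Etv1+ class, secretory cells marked by the transcription factor gene Etv1, had 274 and 266 cells. The ID markers were not met by the ID class alone. Over both libraries together the ID cluster met 14 of the 15, the SD cluster 11 and the Etv1+ cluster 10. Of the 15 SD markers these clusters met 3, 14 and 1. The Etv1+ cluster also met 12 of 12 acinar and 8 of 8 myoepithelial markers. Dcpp2, Dcpp3 and Dcpp1 led the list of genes highest in the ID class over other cells. The 15 ID markers that name this class were chosen with earlier results of these data known, so this lead is not independent support. Of these 15 markers, Bricd5 and Kit had no UMI in the control ID cells.

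Dcpp1 was the most abundant transcript of the control ID cells and made up a large share of all their RNA. It had 416516 CPM there (103869 UMIs), with Dcpp2 at 50065 CPM (12485 UMIs, rank 3) and Dcpp3 at 19825.5 CPM (4944 UMIs, rank 6). In the IR ID cells Dcpp1 had 257558 CPM (158966 UMIs, rank 2), Dcpp2 1489 CPM (919 UMIs, rank 21) and Dcpp3 820 CPM (506 UMIs, rank 50). Dcpp1 thus stayed among the top transcripts of the class in both libraries, and Dcpp2 and Dcpp3 did not.

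The ID class stood far above the acinar class for all 3 genes. In the control library the ratio of ID over acinar CPM was 132 for Dcpp1 (130 to 135), 681 for Dcpp2 (596 to 781) and 590 for Dcpp3 (485 to 726). Of the 645 genes with at least 100 UMIs over these 2 sums, 22.2% were at least 2-fold higher in the ID class, and so were all 3 members. In the IR library the ratios were 113 for Dcpp1, 20.96 for Dcpp2 and 37.8 for Dcpp3. Over the alternatives tried the control ratio of Dcpp1 ran from 24.995 to 371, that of Dcpp2 from 39.6 to 1554 and that of Dcpp3 from 40.9 to 1697, all in the same direction.

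**Figure D1:**
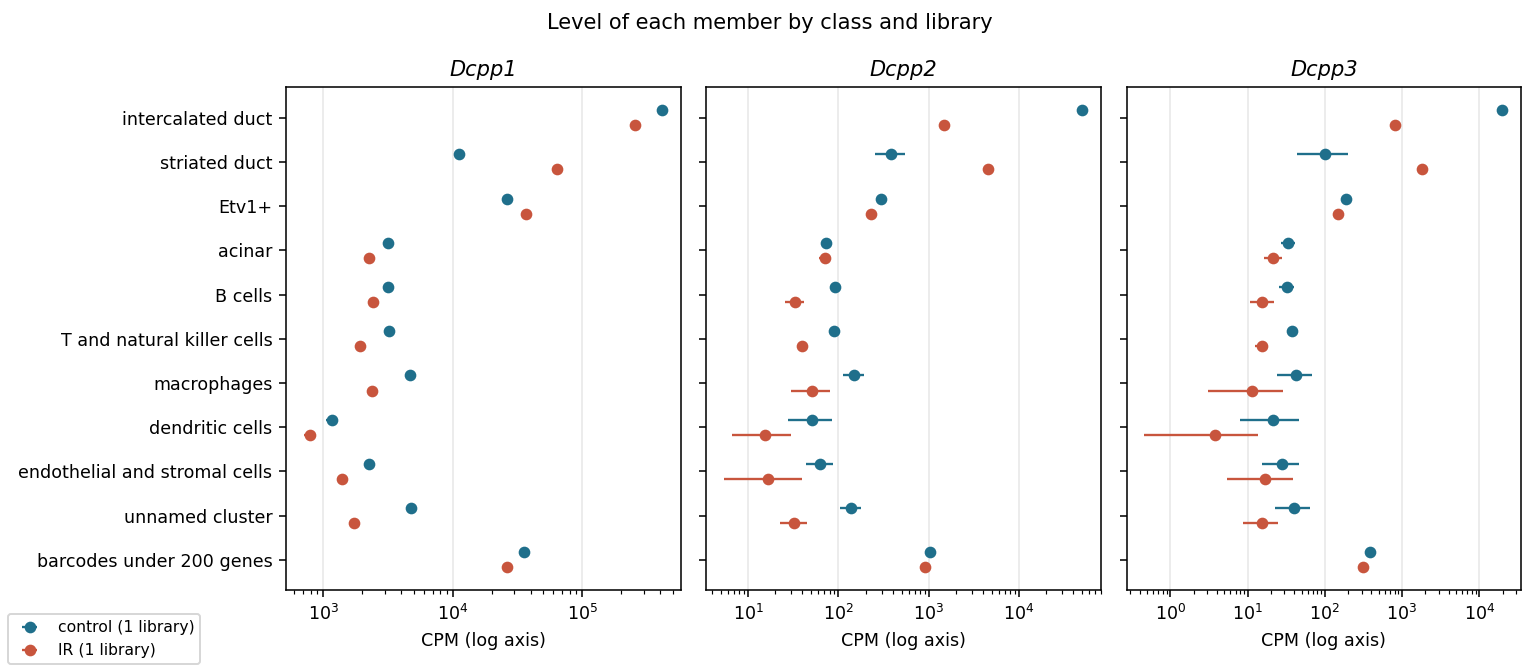
Levels of Dcpp1, Dcpp2 and Dcpp3 (CPM, log axis) in each class and in the barcodes with fewer than 200 genes, with control and IR as 1 library each and bars as exact Poisson 95% intervals. The ID class is highest for all 3 members in the control library. In the IR library the SD class is higher than the ID class for Dcpp2 (4588 against 1489 CPM) and Dcpp3 (1823 against 820 CPM). Without the alike sets this order does not hold (1416 against 1684 CPM and 708 against 886 CPM). The SD values then rest on 66 and 33 UMIs, and the intervals of the 2 classes overlap.

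In the control library Dcpp1 went from 26478 CPM in Etv1+ cells to 11278 in SD cells, 4738 in an unnamed cluster and 4684 in macrophages. It was 3247 CPM in T and natural killer cells, 3183 in B cells and 3147 in acinar cells, and lower in endothelial and stromal cells (2275) and dendritic cells (1175). The intervals of the unnamed cluster and the macrophages overlapped, and so did those of T and natural killer cells, B cells and acinar cells, so these neighbours in the order were not set apart by their counts. The classes differed in depth, with medians of 713.5 UMIs in SD cells, 890.5 in the unnamed cluster and 879 in macrophages. Medians were 3207.5 UMIs in T and natural killer cells, 2538.5 in B cells and 4946 in acinar cells. Endothelial and stromal cells had 2978 and dendritic cells 5613. The part of depth and of RNA from broken cells in this order was not tested.

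In the IR library the SD class came after the ID class for Dcpp1, with 64079 CPM, followed by Etv1+ cells with 36970 CPM. Without set 2 the SD class had 28777 CPM and lay below the Etv1+ cells, the order of the control library. B cells (2405 CPM), macrophages (2391 CPM) and acinar cells (2272 CPM) followed, and the interval of macrophages overlapped those of both neighbours. The other classes lay between 786 CPM in dendritic cells and 1931 CPM in T and natural killer cells.

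Dcpp2 and Dcpp3 were at lower levels than Dcpp1 in every class. In control SD cells Dcpp2 had 378 CPM (30 UMIs) and Dcpp3 101 CPM (8 UMIs), and in control Etv1+ cells they had 293 and 191 CPM. The intervals of these 2 classes overlapped for Dcpp2 and for Dcpp3. In all classes outside the ducts and the Etv1+ cells, Dcpp2 lay between 50.5 and 149 CPM in the control library and between 15.3 and 71.0 CPM in the IR one.

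The counts behind these levels were not spread evenly over classes. Control ID cells held 30.3% of the Dcpp1 UMIs of all kept control cells, 79.4% of the Dcpp2 UMIs and 72.7% of the Dcpp3 UMIs. The much deeper control Etv1+ cells (median 21389.5 UMIs a cell) held 59.1%, 14.3% and 21.5%. In the IR library the ID class held 42.4% of Dcpp1, 27.6% of Dcpp2 and 29.2% of Dcpp3, and the Etv1+ class 47.2%, 33.0% and 41.6%. The IR SD class held 2.54% of Dcpp1, 20.5% of Dcpp2 and 15.6% of Dcpp3. Much of this lay in the alike sets, since the IR ID cells outside them held 16.4%, 10.4% and 10.55%, and the IR SD cells outside them 0.357%, 1.98% and 1.90%.

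The ID cells differed widely among themselves. Dcpp1 took a median of 19.3% of the UMIs of a control ID cell (quartiles 8.11 and 43.3%, highest 78.7%) and 22.8% of those of an IR ID cell (quartiles 9.75 and 25.04%, highest 79.1%). Dcpp1 passed 10% of a cell's UMIs in 64 of 89 control ID cells (71.9%, 61.4 to 80.9%) and in 93 of 125 IR ID cells (74.4%, 65.8 to 81.8%), 53 of which were in set 1. Without set 1 the IR median was 13.5%, and 40 of 72 cells (55.6%) passed 10%, so the IR values were close to the control ones only with the set counted in. In the SD class the median was 1.15% in control and 6.79% in IR cells, but 0.712% in the 35 IR cells outside set 2, and 0 of 90 control cells (0 to 4.02%) and 5 of 80 IR cells passed 10%.

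**Figure D2:**
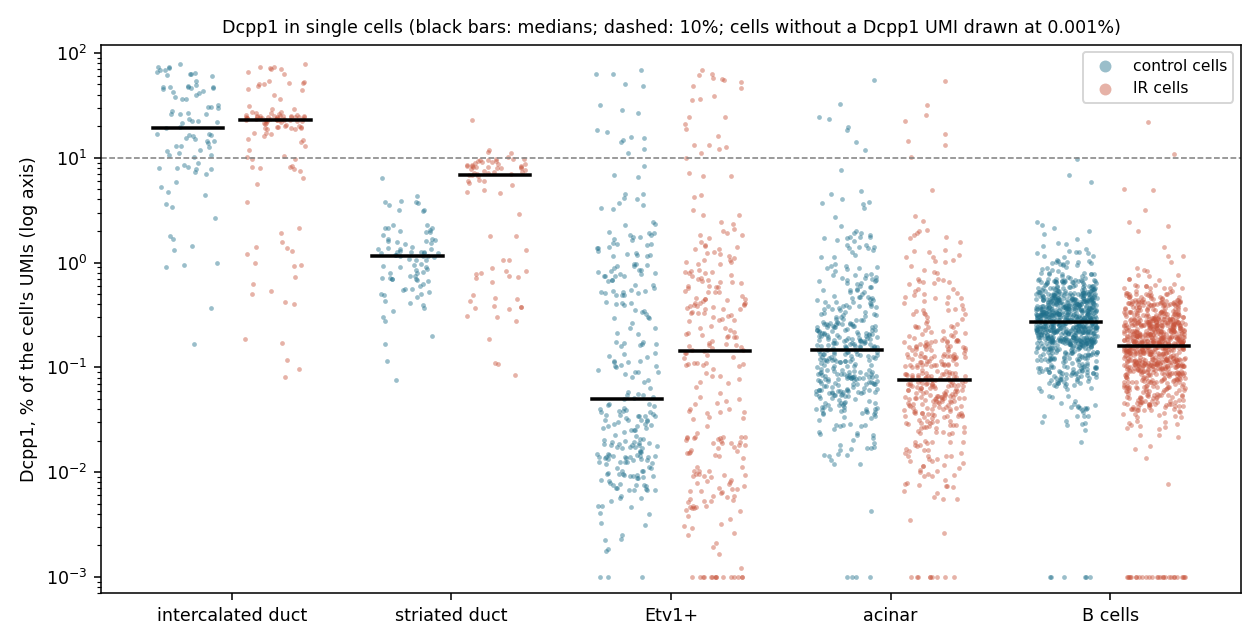
Share of each cell's UMIs that were Dcpp1 (percent, log axis) for single cells of 5 classes, with control and IR cells side by side and black bars as medians. Most ID cells of both libraries lie above the dashed line at 10%, the IR SD cells form a dense band around 8%, and a few Etv1+ and acinar cells reach the range of the ID cells.

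Dcpp1 UMIs were not confined to epithelial cells. A UMI was found in all ID and SD cells, in 99.3% of 836 control B cells (median 2538.5 UMIs) and in 96.8% of 839 IR B cells (median 2179 UMIs). Dcpp2 was found in 20.2% of control and 7.75% of IR B cells, and Dcpp3 in 8.37 and 3.93%. Each cell was then thinned to 1000 UMIs, and cells below that depth (360 in the control library and 492 in the IR one) were dropped. Thinned B cells held Dcpp1 in 89.7 and 78.4%, Dcpp2 in 9.61 and 4.31% and Dcpp3 in 2.80 and 2.09%. B cells make no salivary protein, so these shares were taken as the background. Barcodes with fewer than 200 genes, also planned as a measure of free RNA, gave a higher level. Dcpp1 had 35299 CPM in them in the control library and 26247 CPM in the IR one, against 3183 and 2405 CPM in B cells. Their control level lay above that of control SD and Etv1+ cells, and their IR level below that of IR SD and Etv1+ cells. The share that free RNA gives in other classes was not tested.

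Against that background the thinned ID cells (medians before thinning 1104 and 5005 UMIs) held Dcpp1 in 100 and 97.8%, Dcpp2 in 75 and 64.1% and Dcpp3 in 50% and 50% of control and IR cells. Before thinning, a Dcpp2 UMI was found in 71.9% of control and 69.6% of IR ID cells and a Dcpp3 UMI in 52.8 and 69.6%. Without set 1 the IR shares were 53.8% for Dcpp2 and 46.2% for Dcpp3 after thinning, and 47.2 and 51.4% before. Thinned SD cells (medians 713.5 and 2000.5 UMIs) held Dcpp2 in 10.0% of 20 control cells and in 82.0% of 61 IR cells. The control share was close to that of the B cells, but its interval was wide (1.23 to 31.7%). Before thinning these shares were 27.8 and 66.25%. Summed over all cells, the Dcpp2 level of control SD cells was 4.08 times that of control B cells (2.69 to 5.99). For Dcpp3 the thinned shares were 0 of 20 control cells (0 to 16.8%) and 72.1% of IR cells, and those before thinning 6.67 and 63.75%. Without set 2 only 16 IR SD cells could be thinned, and 5 of them (31.25%, 11.02 to 58.7%) held Dcpp2 and 5 held Dcpp3, an interval that overlapped that of the control cells for Dcpp2 (1.23 to 31.7%) and for Dcpp3.

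Summed over all its cells, the acinar class had a Dcpp1 level close to that of immune cells. Thinned acinar cells (medians 4946 and 5269 UMIs) held Dcpp1 in 68.8% of control and 52.1% of IR cells, below the B cells of the same libraries, and 99.0 and 97.6% before thinning. The level in CPM was 0.988 times that of B cells in the control (0.959 to 1.02) and 0.944 times in the IR library (0.910 to 0.981). Against all immune cells it was 0.976 times (0.953 to 1.0002) and 1.15 times (1.11 to 1.18). For Dcpp2 the acinar level was 0.793 times that of B cells in the control (0.654 to 0.961) but 2.17 times in the IR library (1.64 to 2.91). Most of that came from 3 IR acinar cells, picked after their values were seen, with 52, 44 and 31 Dcpp2 UMIs beside 48, 91 and 91 Dcpp1 UMIs. Dcpp1 passed 10% of UMIs in 8 of 395 control acinar cells (2.03%) and 8 of 377 IR acinar cells (2.12%), and these cells held 43.2 and 60.4% of the Dcpp1 UMIs of the class. In them the 15 ID markers summed to 1875 CPM in the control library and 2352 CPM in the IR one, against 684 and 790 CPM in the other acinar cells. The sums in the 8 cells rested on 28 and 35 UMIs, from 6 and 10 of the 15 genes. The 8 cells were also shallower, with medians of 1500 and 1879.5 UMIs, against 5158 and 5505 in the other acinar cells. Those other acinar cells had 1796 CPM of Dcpp1 in the control library and 905 CPM in the IR one, against 3183 and 2405 CPM in B cells. The closeness of the summed levels thus rested on the few acinar cells with most Dcpp1.

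Nearly all Dcpp1 of the Etv1+ class lay in a small number of cells. Dcpp1 passed 10% of UMIs in 16 of 274 control cells and 22 of 266 IR cells, and these held 93.3 and 93.7% of the Dcpp1 UMIs of the class. The other Etv1+ cells had 1923 CPM in the control library and 2577 CPM in the IR one, against 3183 and 2405 CPM in B cells. The 15 ID markers summed to 4556 CPM in the 16 control cells and 6620 CPM in the 22 IR cells, against 1535 and 1399 CPM in the other Etv1+ cells and 5602 and 4154 CPM in the ID class. The 9 Etv1+ markers summed to 1486 and 2992 CPM in these cells and to 1196 and 1527 CPM in the other Etv1+ cells. In the ID class they summed to 798 CPM in the control library and 1841 CPM in the IR one. Cells with a high share of Dcpp1 thus carried RNA of both marker lists. In the IR library the Etv1+ list did not set the ID class apart from the other Etv1+ cells. Depth differed as well, in opposite directions in the 2 libraries. The 16 control cells were deeper (median 40169 UMIs) than the other control Etv1+ cells (median 20064.5). The 22 IR cells were shallower (median 4482 UMIs) than the other IR Etv1+ cells (median 5873). Scrublet marked no Etv1+ cell in the control library. It also marked none in the IR library, but it did not work there. The part of doublets was not tested further.

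The comparison of IR with control ID cells addressed whether the secretory transcripts of the duct differed 10 months after irradiation. Dcpp1 went from 416516 CPM in control to 257558 CPM in IR ID cells, a ratio of 0.618 (0.614 to 0.623). Dcpp2 went from 50065 to 1489 CPM, a ratio of 0.0297 (0.0278 to 0.0318), and Dcpp3 from 19825.5 to 820 CPM, a ratio of 0.0414 (0.0377 to 0.0453). Dcpp2 was thus 33.6-fold and Dcpp3 24.2-fold lower in the IR library, a far larger difference than that of Dcpp1. Of 286 genes with at least 100 UMIs over both sums, 4.9% were at least 2-fold lower in IR ID cells, among them Dcpp2 and Dcpp3 but not Dcpp1, and 7.69% were at least 2-fold higher, none of the members among them.

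Set 1 moved these ratios little. Its 54 barcodes held between 13.3 and 28.9% Dcpp1 (median 23.5%) and 0.587 Dcpp2 UMIs per 100 Dcpp1 UMIs. Without it the 72 other IR ID cells had 298585 CPM of Dcpp1, 1684 CPM of Dcpp2 and 886 CPM of Dcpp3. The ratios to control were then 0.717 for Dcpp1, 0.0336 for Dcpp2 and 0.0447 for Dcpp3. Of 185 genes tested without the set, 2.16% were at least 2-fold lower, again with Dcpp2 and Dcpp3 among them.

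The ratio of Dcpp1 turned with the choice of clustering genes. When the 3 members were allowed among these genes, the control ID class took in 302838 Dcpp1 UMIs in place of 103869, at 200197 CPM, and the ratio of IR over control was 1.07 for Dcpp1, 0.130 for Dcpp2 and 0.183 for Dcpp3. The ratio of Dcpp1 was 0.94 when abundant secretory genes were left out of the total, and 0.858 when each cell weighed the same. No direction for Dcpp1 in ID cells can therefore be given, whereas Dcpp2 and Dcpp3 were lower in the IR library under each of the alternatives tried.

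The mix of the members differed between the libraries. Control ID cells had 12.0 Dcpp2 UMIs per 100 Dcpp1 UMIs (11.8 to 12.2) and IR ID cells 0.578 (0.541 to 0.617). Immune cells, taken as a measure of free RNA, had 2.86 per 100 in the control library and 1.89 in the IR one, and barcodes with fewer than 200 genes had 2.92 and 3.45. The few immune cells with at least 200 UMIs of the members had fewer, between 0 and 0.701 per 100 by class and library. Control Etv1+ cells had 1.11 and IR Etv1+ cells 0.622. The mix of Dcpp3 and Dcpp2 varied less, with 39.6 Dcpp3 UMIs per 100 Dcpp2 UMIs in control ID cells and 55.1 in IR ID cells, and between 26.7 and 65.5 in the 4 epithelial classes of both libraries.

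A few cells carried nearly all the Dcpp2 of the control ID class. Among the 48 control ID cells with at least 200 UMIs of the members, 7 had over 20 Dcpp2 UMIs per 100 Dcpp1 UMIs, a limit set after the values were seen. The lowest of these had 24.7 and the next cell below had 6.12. The largest held 8100 UMIs of Dcpp1, 6756 of Dcpp2 and 2705 of Dcpp3, the second 6557, 3947 and 1539, and the third 1005, 678 and 246. The other 4 held between 64 and 194 Dcpp2 UMIs. These 7 cells held 95.2% of the Dcpp2 UMIs and 94.3% of the Dcpp3 UMIs of the control ID class but only 16.1% of its Dcpp1 UMIs.

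The other 41 control ID cells with at least 200 UMIs of the members had 0.647 Dcpp2 UMIs per 100 Dcpp1 UMIs, close to the 0.580 of the 87 such IR ID cells. Of the 155 kept IR cells of any class with at least 200 UMIs of the members, none had over 20 per 100, and the highest had 10.4. In the control library the 7 ID cells were all there were among 89. Kept cells with fewer than 200 UMIs of the members were left out of these counts. Among those left out were the IR acinar cells with 52, 44 and 31 Dcpp2 UMIs beside 48, 91 and 91 Dcpp1 UMIs, which were over 20 per 100. The 15 ID markers summed to 2941 CPM in the 7 cells (10 of 15 genes with a UMI) and to 6108 CPM in the 41 others (13 of 15), and the 12 acinar markers to 107177 and 256326 CPM, with the members themselves counted in the totals. The members took a larger share of the UMIs in the 7 cells, which lowers the CPM of every other gene there. These sums thus do not show less marker RNA in the 7 cells relative to their other RNA.

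**Figure D3:**
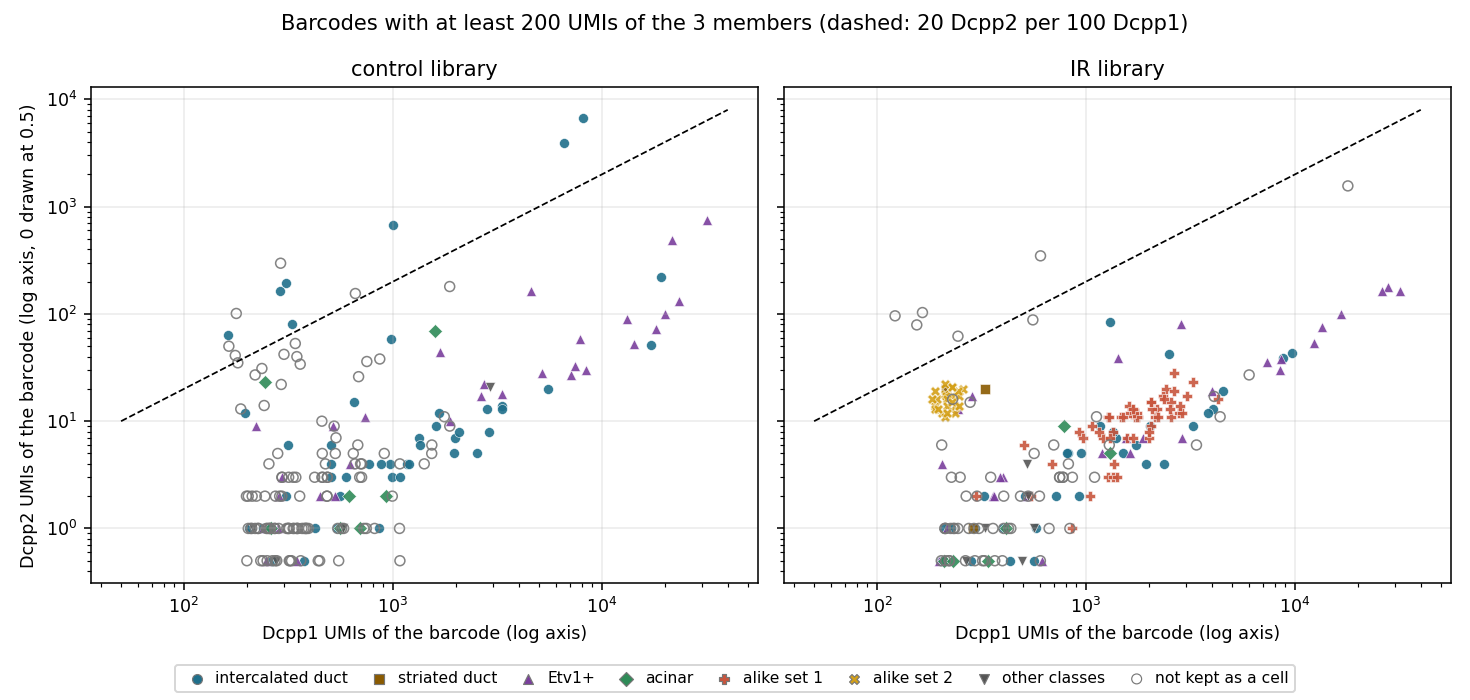
Dcpp2 against Dcpp1 UMIs (log axes) for each barcode with at least 200 UMIs of the 3 members, by class, with open circles for barcodes not kept as cells and the dashed line at 20 Dcpp2 per 100 Dcpp1. Kept cells above the line are the 7 control ID cells, and 5 barcodes that were not kept lie above it in each library.

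Such barcodes were not absent from the IR library. Among barcodes that failed the filters, 5 of 114 in the control library and 5 of 61 in the IR one had over 20 Dcpp2 UMIs per 100 Dcpp1 UMIs. The 5 IR barcodes held 348, 103, 96, 79 and 62 Dcpp2 UMIs beside 606, 165, 122, 155 and 244 Dcpp1 UMIs. Over all barcodes with at least 200 UMIs of the members, the share was 12 of 203 in the control (5.91%, 3.09 to 10.1%) and 5 of 216 in the IR library (2.31%, 0.756 to 5.32%). These intervals overlapped. Among kept cells alone, with the same minimum of 200 UMIs, the shares were 7 of 89 (7.87%, 3.22 to 15.5%) and 0 of 155 (0 to 2.35%), and those intervals did not overlap. Barcodes are not replicates, so neither comparison tests a difference between the conditions. The IR barcode with the most Dcpp2 of those not kept had 69392 UMIs, 10.1% of them mitochondrial, and held 17916, 1562 and 596 UMIs of Dcpp1, Dcpp2 and Dcpp3.

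Without the 7 cells the difference in Dcpp2 and Dcpp3 was close to that of Dcpp1. These cells were picked for their Dcpp2 and all lay in the control library, so leaving them out lowers the control level of Dcpp2 by design. The ratio of IR over control ID cells was then 0.511 for Dcpp2 (0.460 to 0.567), 0.597 for Dcpp3 (0.515 to 0.693) and 0.610 for Dcpp1 (0.605 to 0.615), and no member was 2-fold lower. The 5 control ID cells with the most of each gene held 54.5% of the Dcpp1, 94.5% of the Dcpp2 and 94.0% of the Dcpp3 of the class, so its Dcpp2 level rested on very few cells.

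The SD class moved the other way. Dcpp1 went from 11278 CPM in control (895 UMIs) to 64079 CPM in IR SD cells (9525 UMIs), a ratio of 5.68 (5.31 to 6.09). Dcpp2 went from 378 to 4588 CPM (30 and 682 UMIs), a ratio of 12.1 (8.42 to 18.1), and Dcpp3 from 101 to 1823 CPM (8 and 271 UMIs), a ratio of 18.1 (9.05 to 42.3). All 3 members were thus at least 2-fold higher, as were 5.63% of the 213 genes tested.

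Most of this came from set 2. Its 45 barcodes held between 4.6 and 11.7% Dcpp1 (median 8.12%) and 7.53 Dcpp2 UMIs per 100 Dcpp1 UMIs, against 4.92 in the other IR SD cells. They had between 1406 and 3149 UMIs. The kallikrein gene Klk1, an SD marker of the study, had 3587 CPM in them, against 22061 CPM in the other IR SD cells and 45917 CPM in control SD cells. The 15 SD markers summed to 7546 CPM in set 2, 45001 CPM in the other IR SD cells and 75076 CPM in control SD cells, and only Scnn1g had no UMI in set 2. The 12 acinar markers moved the opposite way, with 472644, 298569 and 224118 CPM. The 15 ID markers did so too, with 4086, 3412 and 2205 CPM, against 4154 CPM in the IR ID class. The level of set 2 was close to that of the IR ID class only when the alike ID barcodes were counted in. Without them the IR ID class had 6063 CPM (5732 to 6408), above the 4086 CPM of set 2 (3704 to 4498). The part of acinar or ID RNA in the result was not tested.

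Without set 2 the 35 other IR SD cells had 28777 CPM of Dcpp1, 1416 CPM of Dcpp2 and 708 CPM of Dcpp3, and the ratios to control were 2.55 (2.34 to 2.78), 3.75 (2.40 to 5.98) and 7.03 (3.18 to 17.6). Of 160 genes tested without the sets, 3.12% were at least 2-fold higher, Dcpp1 among them, while Dcpp2 and Dcpp3 had fewer than 100 UMIs. The remainder rested on 5 cells, with 2.92 to 22.8% Dcpp1, which held 1190 of the 1341 Dcpp1 UMIs. When the 5 cells with the most Dcpp1 were also left out of each library, the IR cells (30 cells) had 5183 CPM of Dcpp1 against 9679 CPM in the control (85 cells). The ratios were then 0.535 for Dcpp1 (0.446 to 0.639), 0.308 for Dcpp2 (0.0595 to 1.01) and 0.321 for Dcpp3 (0.00723 to 2.39). These cells were picked for their Dcpp1 and were a larger share of the IR than of the control cells, which lowers the IR level more. The intervals of Dcpp2 and Dcpp3, with 3 and 1 IR UMIs left, included 1, so no direction can be given for them.

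**Figure D4:**
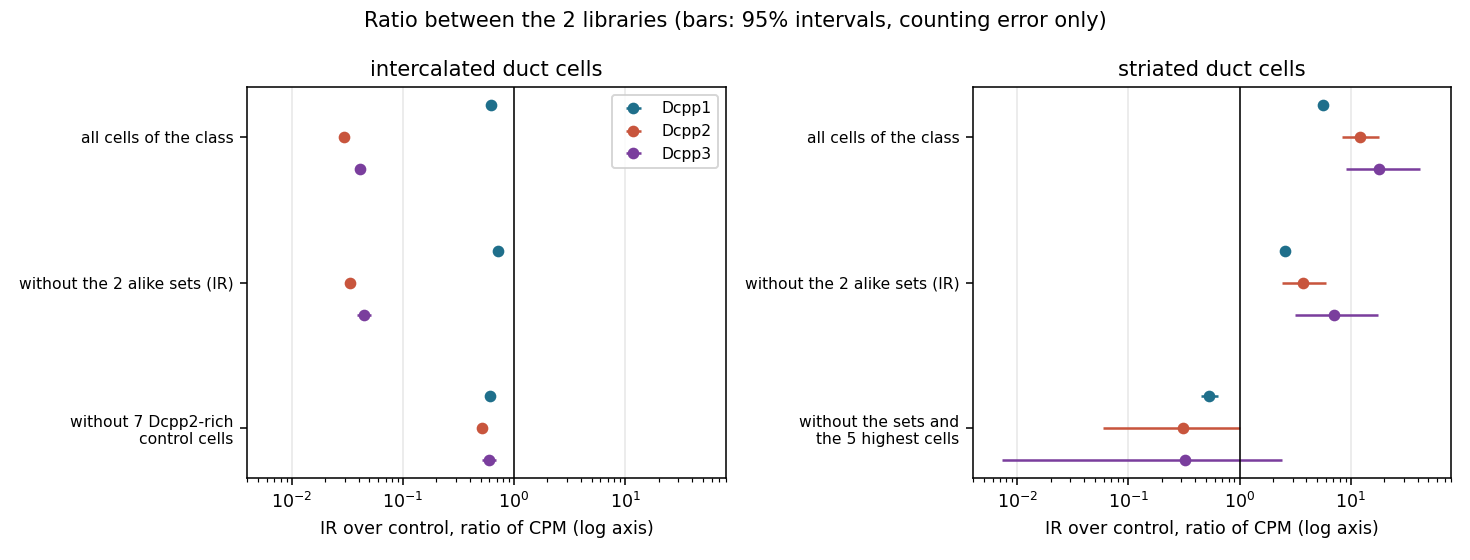
Ratio of IR over control CPM (log axis, 1 marked by the line) for Dcpp1, Dcpp2 and Dcpp3 in ID cells (left) and SD cells (right), for all cells and with named cells left out, with exact 95% intervals for counting error. In ID cells the ratios of Dcpp2 and Dcpp3 move from 0.0297 and 0.0414 to 0.511 and 0.597 without 7 control cells, which were picked for their Dcpp2. In SD cells all 3 ratios lie below 1 without set 2 and the 5 highest cells of each library, with intervals that include 1 for Dcpp2 and Dcpp3.

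In the acinar and Etv1+ classes no member passed 2-fold between the libraries. In acinar cells the ratio of IR over control was 0.722 for Dcpp1 (0.699 to 0.746), 0.966 for Dcpp2 (0.792 to 1.18) and 0.645 for Dcpp3 (0.459 to 0.9002), and 3.51% of 1139 genes passed 2-fold in either direction. In Etv1+ cells it was 1.40 for Dcpp1 (1.39 to 1.41), 0.784 for Dcpp2 (0.728 to 0.843) and 0.787 for Dcpp3 (0.719 to 0.861), and 2.19% of 3843 genes did. In immune cells, whose counts were taken as the level of free RNA, the ratios were 0.616 for Dcpp1, 0.406 for Dcpp2 and 0.410 for Dcpp3. A few cells weighed on the value for Dcpp1. In the control library 1 T or natural killer cell held 2925 of the 13365 Dcpp1 UMIs of its class, and 2 IR B cells held 1058 of 5079. In barcodes with fewer than 200 genes the ratios were nearer 1, at 0.744, 0.880 and 0.807. The ratios in acinar cells lay near those in B cells for Dcpp1 (0.756) and Dcpp3 (0.483, with an interval of 0.311 to 0.737), and those for Dcpp2 did not (0.352 in B cells). For Dcpp1 this counts in the 8 acinar cells of each library with over 10% Dcpp1. The other acinar cells went from 1796 CPM of Dcpp1 in control to 905 CPM in IR, a lower ratio than in B cells.

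Of a list of 22 secreted salivary proteins, 18 had enough UMIs, and 10 of these were at least 2-fold higher in IR ID cells and 0 were 2-fold lower, against 7.69% and 4.9% of all genes, with a median ratio of 2.30 against 1.01 over all genes tested. Bpifa2, the parotid secretory protein and the one with the most UMIs, went from 185182 to 318502 CPM, a ratio of 1.72. The next by UMIs were Chia1, an acidic chitinase, with a ratio of 4.48, and Smr3a, a submandibular gland androgen-regulated protein, with 0.947. Without set 1 the median of the list was 1.57 against 1.43 over all genes, and the ratios were 1.496 for Bpifa2, 2.19 for Chia1 and 0.469 for Smr3a, which was then at least 2-fold lower. In the control library the median ratio of the list in ID over acinar cells was 0.217, against 1.36 over all genes. The 12 acinar markers summed to 239674 CPM in control and 396830 CPM in IR ID cells, or 322770 CPM without set 1. The part of acinar RNA in the ID results was not tested.

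Of the 15 ID markers, 6 had enough UMIs, with ratios from 0.396 to 2.79 and a median of 0.854. Wfdc18, a secreted protein with a whey acidic protein domain, was at least 2-fold lower (2049 to 812 CPM, ratio 0.396), and Wfdc12, of the same family, was at least 2-fold higher (ratio 2.79). Pglyrp1, a secreted peptidoglycan recognition protein, had a ratio of 0.860 and Bglap3, an osteocalcin-related gene, 0.745. Without set 1 the median was 1.22 and the ratios were 0.742 for Wfdc18, 3.71 for Wfdc12, 0.844 for Pglyrp1 and 1.32 for Bglap3, so that Wfdc18 no longer passed 2-fold and Bglap3 turned direction. None of the 6 had a ratio near that of Dcpp2 or Dcpp3 over all ID cells (0.0297 and 0.0414). Without the 7 control cells rich in Dcpp2 those ratios were 0.511 and 0.597, within the range of the 6 markers over all ID cells.

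The genes with the pattern most like that of the members included 3 other ID markers. Over 20 points (10 classes in 2 libraries, which share depth and free RNA) and 10395 genes, Dcpp2 and Dcpp3 were most like each other, with a Pearson correlation of log2(CPM + 1) of 0.984, and Dcpp1 had 0.951 with Dcpp3 and 0.930 with Dcpp2. Wfdc18 came next, with 0.934 for Dcpp1, 0.860 for Dcpp2 and 0.872 for Dcpp3, and then Pglyrp1 with 0.901, 0.844 and 0.850. The fifth was Bglap3 for Dcpp1 (0.832), 0610040J01Rik for Dcpp2 (0.794) and Wnk2 for Dcpp3 (0.798), the last 2 with only 113 and 125 UMIs in all.

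The genes next to the members that could be counted did not share their level. The serine protease genes Prss33, Prss41, Prss32, Prss21, Prss30 and Prss22 and the genes Sbp and Sbpl, which flank the Dcpp genes on chromosome 17, had between 0 and 36 UMIs over all barcodes of a library. In the same barcodes Dcpp1 had 419373 UMIs in the control library and 450251 in the IR one. The genes AC110262.1, AC110262.2, AC110262.3 and AC110262.4, also listed for this region, were absent from the count matrices, so their level is not known.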

How the data were processed

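Single-cell libraries of control and irradiated parotid glands were deposited as count matrices of unique molecular identifiers (UMIs), which the authors made with Cell Ranger 3.0.1 per the submitters' processing notes, which also list Seurat 3 and the mm10 build. The annotation release is not given in the sources used here, nor is the step that told cells from empty droplets. The matrices held whole-number counts for every barcode with at least 500 UMIs, and no columns of the authors' comparisons.

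Barcodes with 200 genes or more and no more than 5% mitochondrial UMIs were kept. Libraries were integrated and clustered in R 4.3.3 with Seurat 5.3.0 (2000 variable genes without Dcpp1-3, 30 components, resolution 0.3, or the lowest higher resolution that parted the duct markers). Summed UMIs per class were scaled to CPM (UMIs of a gene per 1000000 UMIs) in Python 3.11.15 with numpy 2.4.6 and scipy 1.17.1. Levels were given exact Poisson, shares Clopper-Pearson and ratios exact conditional binomial 95% intervals. Cells were thinned to 1000 UMIs for shares of cells with a UMI. The share of genes past 2-fold was taken over genes with at least 100 UMIs in the 2 sums compared. Doublets were scored with Scrublet in scanpy 1.11.5 and kept. Sequences were compared with biopython 1.88, and figures drawn with matplotlib 3.10.9. With 1 library a condition no test was run.

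Named genes were the members, the 5 genes most like each (Pearson correlation of log2(CPM + 1) over classes with at least 10000 UMIs, genes with at least 100 UMIs), the markers, 22 secreted salivary proteins, 15 intercalated duct genes and the neighbours on the chromosome. Members and lists were chosen with earlier results of these data known. Alternatives were at most 10% mitochondrial UMIs, at least 500 genes, the members kept in clustering, resolution 0.8, equal weight of cells, CPM without abundant genes, TMM factors (edgeR 4.0.16), no cells with the 6% highest doublet scores and a minimum of 20 UMIs a gene. A further 4 alternatives were chosen after seeing the data. The ratios and their intervals were tested on simulated sums of the duct classes, and the other steps were not.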

Additional observations from a re-analysis of the deposited data

Results flagged for a closer look

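The ratio of IR over control CPM lay on opposite sides of 1 in the 2 duct classes for each of the 3 genes, though for Dcpp1 the ratio in ID cells was 1.07, on the same side as in SD cells, when the members were kept in clustering. For Dcpp1 it was 0.618 in intercalated duct (ID) cells and 5.68 in striated duct (SD) cells. For Dcpp2 it was 0.0297 in ID cells and 12.1 in SD cells, and for Dcpp3 0.0414 and 18.1. With 1 library a condition the difference between the classes was not tested. The values in intercalated ducts rested on 7 control cells for Dcpp2 and Dcpp3, and those in striated ducts rested largely on a set of 45 alike IR barcodes, without which the ratios were 2.55, 3.75 and 7.03.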

How the results depend on the processing

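No paired analysis was possible because each condition has 1 library, and for the same reason no replicate was left out. Of 102 values computed under alternatives, 37 moved by less than their counting interval, 62 moved beyond it and 3 that had passed 2-fold turned direction. Of the 62, the ID ratio of Dcpp1, which had not passed 2-fold, also went from below to above 1 under 1 alternative. Values are given in the order Dcpp1, Dcpp2, Dcpp3 where 3 stand together, as IR/control ratios in ID and SD cells, as control ID/acinar ratios, and as Dcpp2 UMIs per 100 Dcpp1 UMIs in control ID cells (the mix).

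With at most 10% mitochondrial UMIs the ID ratios of Dcpp1 and Dcpp2 were 0.645 and 0.0325, the SD ratio of Dcpp1 6.17, the ID/acinar ratio of Dcpp1 104 and the mix 12.6. With at least 500 genes, where 15 control ID cells were left and the duct classes needed resolution 1.5, the ID ratios were 0.594, 0.0418 and 0.0612, the SD ratio of Dcpp3 63.4, the ID/acinar ratios 371, 1554 and 1697 and the mix 7.62. With the members kept in clustering the ID ratios were 1.07, 0.130 and 0.183, the ID/acinar ratios 115, 256 and 238 and the mix 4.86. Without the 6% highest doublet scores the ID ratio of Dcpp1 was 0.604. With each cell weighing the same the ID ratios were 0.858, 0.0843 and 0.124, the SD ratio of Dcpp1 3.92, the ID/acinar ratios 30.4, 80.1 and 68.7 and the mix 6.21. With CPM without abundant genes the ID ratios were 0.94, 0.0452 and 0.0629, the SD ratios of Dcpp1 and Dcpp2 8.61 and 18.4 and the ID/acinar ratios 24.995, 129 and 111. With TMM factors the ID ratios were 0.803, 0.0386 and 0.0537, the SD ratios of Dcpp1 and Dcpp2 9.36 and 19.99 and the ID/acinar ratios 51.6, 266 and 230.2. At resolution 0.8 no value moved beyond its interval. With a minimum of 20 UMIs, 17.2% of genes passed 2-fold either way in ID cells, against 12.6% at 100 UMIs.

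The other alternatives were chosen after seeing the data. Without the 2 alike sets the ID ratios of Dcpp1 and Dcpp2 were 0.717 and 0.0336 and the SD ratios 2.55, 3.75 and 7.03. With the 2 control cells that had been set apart counted as ID cells, the ID ratios were 0.717, 0.0345 and 0.0480 and the ID/acinar ratios of Dcpp1 and Dcpp2 114 and 587. Without the 7 control cells rich in Dcpp2 the ID ratios were 0.610, 0.511 and 0.597, the ID/acinar ratios of Dcpp2 and Dcpp3 39.6 and 40.9 and the mix 0.690. Without the sets and the 5 highest SD cells of each library, the SD ratios were below 1, at 0.535, 0.308 and 0.321, with intervals that include 1 for Dcpp2 and Dcpp3. The cause of these moves was not tested, beyond the cells each alternative leaves out or takes in.

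Depth limits the control SD class most, with 30 Dcpp2 and 8 Dcpp3 UMIs. Counts are further limited by the near-identical copies, by free RNA and by a doublet caller that did not work in the IR library.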
